A study of Mus musculus with 12 samples.

Results

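Transcripts of 9 genes were followed through all 12 libraries of the series: Mtdh, which encodes AEG-1 (astrocyte elevated gene-1, also called metadherin), and 8 coregulators of nuclear receptors, namely Ncoa1, Ncoa2, Ncoa3, Ncor1, Ppargc1a, Ppargc1b, Med1 and Nrip1. They were chosen by name and not by a measured value, though with earlier results of these data known. They are 9 of the 46983 genes in the count tables. All 9 passed the filter on low counts and were among the 15664 genes tested. RNA came from primary mouse hepatocytes, isolated and cultured, of mice carrying the AEG-1-L24K/L25H allele made with CRISPR/Cas9 on a C57BL/6/J background (the knock-in) and of AEG-1-WT littermates (wild type). Both genotypes came from matings of heterozygotes and ate regular chow. Cells were given the PPAR-alpha agonist CP775146 at 2.5 µM for 24 h or were left untreated, and no vehicle is named for the untreated cells. The 4 groups, of 3 libraries each, were knock-in with CP775146, knock-in untreated, wild type with CP775146 and wild type untreated. The age and sex of these mice are not given in the sources used here, nor is it stated whether a group's 3 libraries stem from separate mice or cultures, so p-values measure the spread between libraries, which may be technical. Genotype and the animals or preparations that carried it cannot be told apart.

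Nuclear receptors such as PPAR-alpha, the fatty acid sensor of the liver, pair with the retinoid X receptor (RXR) on DNA and switch genes through coregulators. Coactivators dock on a ligand-bound receptor through short leucine-rich LXXLL motifs and bring histone-modifying enzymes and the Mediator complex. Corepressors hold the receptor silent, mostly without ligand. AEG-1 is a multifunctional, tumour-promoting protein that carries such a motif, has been described as binding RXR through it and as hindering the recruitment of coactivators. In the liver the PGC-1 coactivators drive fasting metabolism and mitochondrial genes.

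The motif altered in the knock-in was located in the annotated coding sequence of Mtdh-201 (579 codons, GRCm38), with codons counted from 1 at the start codon. The motif searched was a run of 5 codons, read in frame on the coding strand, with a leucine codon (CTN, TTA or TTG) at the first, the fourth and the fifth position. Mtdh held 3 such runs, at codons 21 to 25, 59 to 63 and 63 to 67, the second and the third sharing a codon. L24K and L25H fall on TTG and CTC, the closing leucine codons of the first run, in exon 1. The stretch printed below for this run (codons 16 to 30) lies at chr15:34083081-34083125 on the plus strand. Beside it, 1 run each of Ncoa1, Ncoa2, Ncoa3 and Med1 is shown as an example of a coactivator motif, with the run in capitals between its neighbouring codons. Of the several runs in each gene, the one printed is the second of the motifs described in the literature on these coactivators as contacting receptors, and no comparison of the sites was made. Positions below span each whole printed stretch, the run with 5 codons on either side, and the codons named are those of the run. The stretches lie at chr12:4295237-4295281 for Ncoa1 (codons 694 to 698), chr1:13174376-13174420 for Ncoa2 (690 to 694), chr2:166055304-166055348 for Ncoa3 (677 to 681) and chr11:98158007-98158051 for Med1 (645 to 649). All are on the minus strand except that of Ncoa3, and all are printed 5′ to 3′ along the gene.
Mtdh: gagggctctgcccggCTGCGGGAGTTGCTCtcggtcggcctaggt
Ncoa1: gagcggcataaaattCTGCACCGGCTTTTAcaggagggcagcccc
Ncoa2: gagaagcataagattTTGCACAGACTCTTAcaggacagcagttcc
Ncoa3: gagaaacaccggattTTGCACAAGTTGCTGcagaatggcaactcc
Med1: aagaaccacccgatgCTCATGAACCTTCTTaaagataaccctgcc

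Across the genes, the coding sequence of Nrip1 held 10 runs, Ncoa1 7, Ncoa3 6, Ncoa2 4, Ppargc1b 3, Med1 2, and Ncor1 and Ppargc1a 1 each. The runs of Nrip1 at codons 501 to 505 and 502 to 506 overlap, and both were counted. At least 1 run was present in 45.0% of 21535 annotated coding genes, so its presence alone does not set these genes apart. Of 1758 genes with coding sequences of similar length, 0.569% held at least as many runs as Nrip1, and of 1094 such genes 3.47% held at least as many as Ncoa1. For Mtdh the share was 10.4% of 4494 genes, and for Ncor1 85.4% of 342. A match of letters is a description of the sequence and no sign that a receptor binds there. The counts of reads per gene do not read the altered codons, so the transcript levels below do not check the genotype.

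Total counts were 26956032 to 34885451 per library. Levels are CPM, counts relative to library sizes that were scaled by the trimmed mean of M-values (TMM). The adjusted p is that of the quasi-likelihood test of edgeR with Benjamini-Hochberg adjustment over all 15664 genes, a gene passed where it was under 0.05, and log2 fold changes carry their SE. The 7 hepatocyte markers were present in every group. Their summed level was 73012 to 83252 CPM in knock-in libraries and 113024 to 123026 CPM in wild-type libraries. Alb made up most of it, averaging 65623 and 70529 CPM in the knock-in and 107664 and 102106 CPM in wild type (treated and untreated). In both treatments 5 of the 7 means were lower in the knock-in. The other markers, Hnf4a and Cps1, were higher there in treated cells only. Hnf4a had 597 and 625 against 581 and 631 CPM, and Cps1 790 and 1870 against 542 and 1970 CPM. Summed markers of macrophages (107 to 161 CPM in knock-in, 185 to 253 CPM in wild type), endothelial cells (39.9 to 66.5 against 98.9 to 160.3 CPM) and stellate cells and fibroblasts (67.9 to 122 against 160.3 to 220.3 CPM) were lower in knock-in libraries, with 2 or 3 of 7, 6 of 8 and 2 to 4 of 8 markers above 1 CPM. A few genes carried these sums. Cd68 averaged 110 and 151 CPM in treated and untreated knock-in and 185 and 234 CPM in treated and untreated wild type, while 4 of the 7 macrophage markers (Adgre1, Clec4f, Marco and Cd5l) had higher means in the knock-in in both treatments. Of the 8 endothelial markers 6 had lower means and Lyve1 a higher one, with Stab2 and Flt1 the most abundant, and of the 8 stellate and fibroblast markers 6 had lower and 2 higher means, with Reln alone at 67.1 and 109 CPM in the knock-in and 168 and 200.2 CPM in wild type. Within each genotype these sums were also lower with CP775146, without overlap except for stellate cells and fibroblasts in wild type. Those of cholangiocytes were higher in the knock-in (64.0 to 70.5 against 34.1 to 49.5 CPM), with 6 of 7 means higher, 4 or 5 of 7 markers above 1 CPM and Cftr at 0 in the knock-in. The 7 lymphocyte and neutrophil markers together reached at most 0.306 CPM, with Cd3e at 0 in all but treated wild type. Fewer cells of a type and less RNA per cell cannot be told apart, and the part of these shifts in the results below was not tested.

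Per kilobase of exon, Ncor1 and Mtdh were the most abundant of the 9 in each group, and the PGC-1 genes the least. Ncor1 had 18.9 ± 0.447, 17.2 ± 0.372, 15.7 ± 1.67 and 16.6 ± 0.487 CPM per kb in knock-in with CP775146, knock-in untreated, wild type with CP775146 and wild type untreated (SD, n = 3 each). Mtdh followed with 15.9 ± 0.307, 14.3 ± 0.163, 15.0 ± 0.357 and 13.7 ± 0.700 CPM per kb in the same order of groups, overlapping with Ncor1 in treated wild type and in no other group. Med1 came next in each group, at 8.52 to 9.43 CPM per kb by group mean. The p160 genes Ncoa1, Ncoa3 and Ncoa2 lay between 4.52 and 8.54 CPM per kb, and Nrip1 between 3.87 and 4.69 CPM per kb. Ncoa1 and Ncoa3 overlapped in untreated knock-in, Ncoa3 and Ncoa2 in untreated wild type, Med1 and Ncoa1 in treated wild type, and Ncoa3, Nrip1 and Ncoa2 each overlapped with the next in treated wild type. Ncor1 stood above 77.4 to 80.9% of the tested genes by level per kb, and Ppargc1a above 24.4 to 39.0%.

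**Figure D1:**
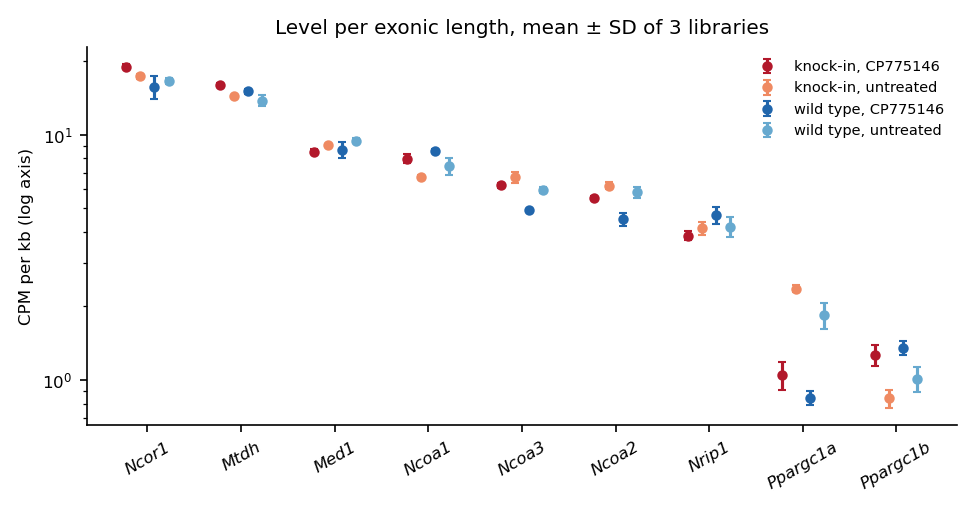
Level of each gene per kilobase of exon (CPM per kb, log axis), as mean ± SD of the 3 libraries of each of the 4 groups, ordered by level in untreated wild type. Ncor1 and Mtdh lie highest in each group, and Ppargc1a and Ppargc1b change places between untreated and CP775146-treated cells.

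With CP775146, 6 of the 9 genes passed the test in knock-in cells (3 higher, 3 lower), where 37.2% of all tested genes passed, and 7 passed in wild-type cells (3 higher, 4 lower), where 45% passed. Mtdh, Ncoa1 and Ppargc1b rose and Ncoa2, Ncoa3 and Ppargc1a fell in both genotypes, and Med1 was the seventh call in wild type. Libraries of treated and untreated cells did not overlap for 8 of the 9 genes in the knock-in and for 6 in wild type, against 51.9% and 49% of all tested genes. The median log2 change of the 9 was -0.09 in the knock-in and -0.08 in wild type, against -0.0099 and -0.0052 over all tested genes. Between genotypes, 5 of 9 passed in treated cells (4 higher, 1 lower in the knock-in), where 42.5% of all genes passed, and 3 of 9 in untreated cells (2 higher, 1 lower), where 37% passed. The knock-in and wild-type libraries did not overlap for 7 of the 9 genes in treated cells (5 above, 2 below) and for 4 in untreated cells, where 51.2% (24.9% above, 26.3% below) and 47.4% of all genes did not overlap. Scaling by total counts moved the median log2 change of all genes to 0.12 and 0.10 between genotypes (treated and untreated) and to -0.07 and -0.10 with the agonist (knock-in and wild type), against -0.013, -0.0042, -0.0099 and -0.0052 with the scaling used here. With it, 5950 genes were higher and 1867 lower in treated knock-in than in treated wild type, against 3218 and 3447, and 5024 higher and 1722 lower in untreated cells, against 2884 and 2918. With the agonist in the knock-in, it gave 2066 higher and 4352 lower, against 2832 and 2989, and in wild type 2358 and 5338, against 3553 and 3496. The contrasts share groups of libraries, so their counts are not independent of each other.

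**Figure D2:**
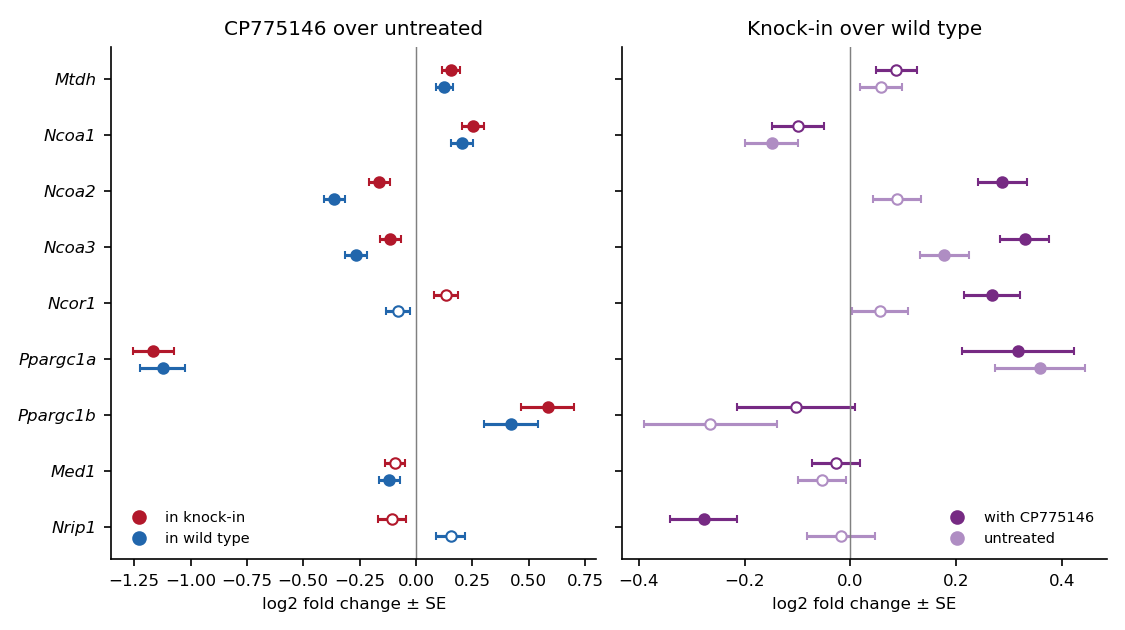
Log2 fold change ± SE of each gene for CP775146 over untreated in each genotype (left) and for knock-in over wild type in each treatment (right), from the edgeR fit to all 12 libraries; filled points passed an adjusted p below 0.05. Ppargc1a has the largest fall of the 9 with CP775146 (-1.16 in knock-in, -1.12 in wild type) and Ppargc1b the largest rise (0.59 and 0.42).

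The targeted gene, Mtdh (ENSMUSG00000022255, chr15:34082694-34142386, plus strand, GRCm38), was higher with the agonist in each genotype. It did not pass between genotypes, though in treated cells it did under some other settings. Mtdh had 191, 190.0 and 197 CPM in treated and 175, 171 and 172 CPM in untreated knock-in libraries. In wild type it had 177, 186 and 181 CPM in treated and 174, 157 and 166 CPM in untreated libraries. Treated libraries lay above untreated ones in each genotype, and the 3 treated knock-in libraries were the highest of all 12. Mtdh rose by 0.16 ± 0.04 log2 with CP775146 in the knock-in (11.4%, adjusted p = 0.00189) and by 0.13 ± 0.04 in wild type (9.15%, adjusted p = 0.0093). Under scaling by total counts these were 0.09 (adjusted p = 0.0596) and 0.03 (adjusted p = 0.598), and without replicate 2 of untreated wild type the second was 0.09 (adjusted p = 0.0666). Between genotypes Mtdh did not pass: knock-in over wild type was 0.09 ± 0.04 in treated cells (adjusted p = 0.0718) and 0.06 ± 0.04 in untreated cells (adjusted p = 0.262), with 95% intervals of 0.01 to 0.16 and -0.02 to 0.13. The treated value passed under 6 of 15 other settings, among them RLE scaling and a fit to the compared groups alone. The others were DESeq2 (adjusted p = 0.0482), limma voom (0.0362), total-count scaling (1.9e-05) and leaving out replicate 2 of treated wild type (0.0293).

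The genes whose log2 CPM followed Mtdh most closely over the 12 libraries, among 9356 candidates, were Rabgap1l (Pearson r = 0.962), Polr1e (0.956) and Nt5dc1 (0.953). For the coregulators the nearest were Sulf2 for Ncoa1 (0.950), Cbl for Ncoa2 (0.981), Mapk1ip1l for Ncoa3 (0.990), Polr1a for Ncor1 (0.944), Fmo1 for Ppargc1a (0.993), Smurf1 for Ppargc1b (0.962), Apc for Med1 (0.957) and Fpgt for Nrip1 (0.909). None of the 9 genes was the nearest of another. The 12 libraries share their 4 groups and their library sizes, so these values describe likeness of pattern only.

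**Figure D3:**
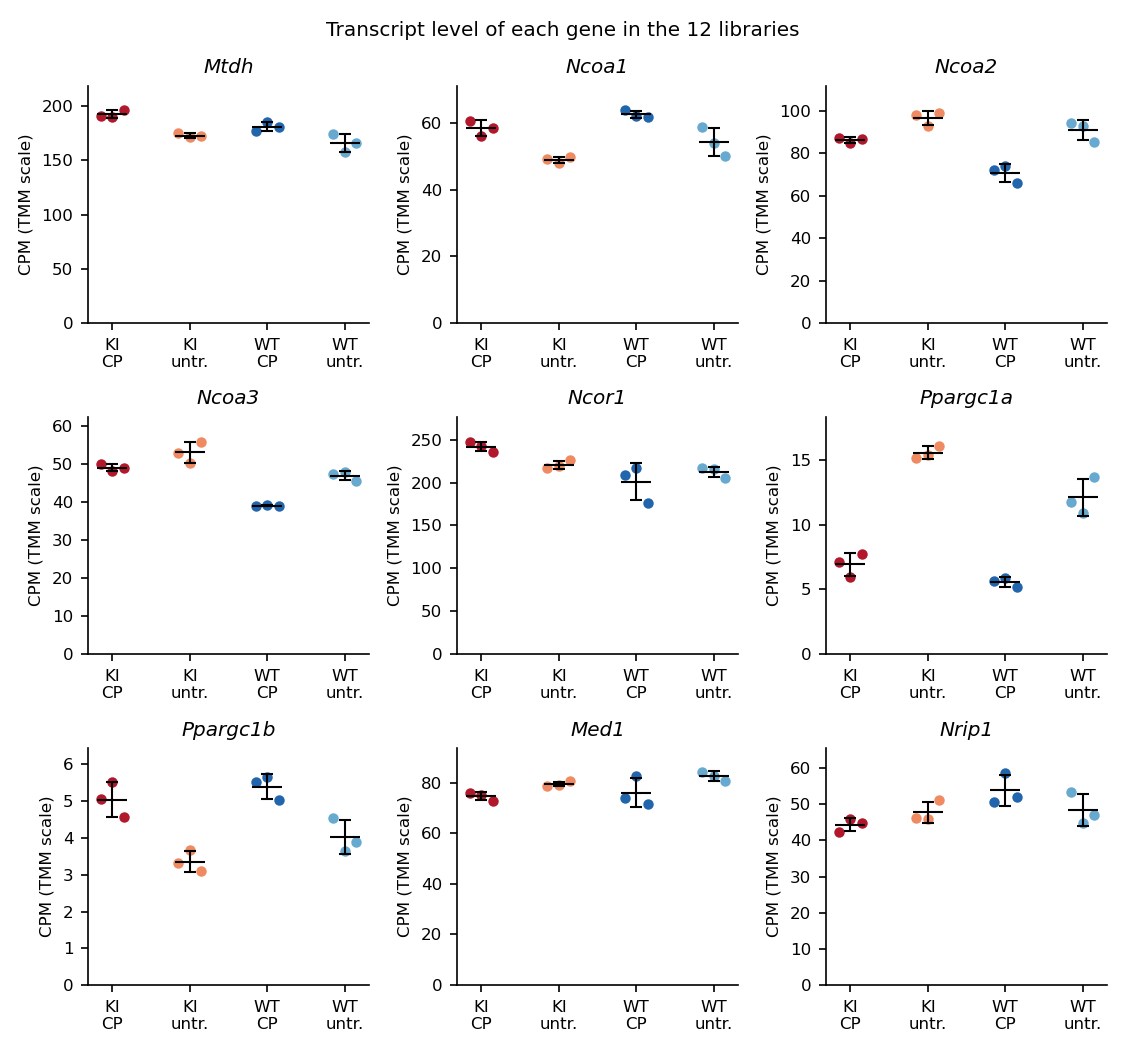
CPM of each of the 9 genes in every library (points, 3 per group) with the mean and SD of the group (bars), for knock-in (KI) and wild type (WT) with CP775146 (CP) or untreated (untr.); each axis starts at 0. Mtdh, Ncoa1 and Ppargc1b lie higher and Ncoa2, Ncoa3 and Ppargc1a lower with CP775146, and treated wild type has the lowest mean for Ncoa2, Ncoa3, Ncor1 and Ppargc1a.

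The p160 family comprises Ncoa1 (SRC-1), Ncoa2 (SRC-2, also TIF2 or GRIP1) and Ncoa3 (SRC-3), which dock directly on liganded receptors and recruit histone acetyltransferases and methyltransferases. Its members moved in opposite directions with the agonist, Ncoa1 up and Ncoa2 and Ncoa3 down, in both genotypes. Ncoa1 (ENSMUSG00000020647, chr12:4247363-4477182, minus strand) had 60.8, 56.1 and 58.6 CPM in treated and 49.2, 48.0 and 49.8 CPM in untreated knock-in libraries. In wild type, Ncoa1 had 63.9, 62.2 and 61.8 CPM in treated and 58.8, 54.1 and 50.2 CPM in untreated libraries. The treated libraries were the higher ones without overlap in each genotype, and untreated knock-in libraries were the lowest of the 12. Ncoa1 rose by 0.25 ± 0.05 log2 in the knock-in (adjusted p = 0.000114) and by 0.20 ± 0.05 in wild type (adjusted p = 0.00117, or 0.0803 with total-count scaling, where the value was 0.11). In untreated cells Ncoa1 was lower in the knock-in by -0.15 ± 0.05 log2 (adjusted p = 0.0188). That call was lost without replicate 1 of untreated wild type (-0.08, adjusted p = 0.235), without replicate 1 or 2 of untreated knock-in (adjusted p = 0.0542 and 0.0948) and with total-count scaling (-0.05, adjusted p = 0.48). In treated cells Ncoa1 gave -0.10 ± 0.05 (adjusted p = 0.103), with knock-in libraries below wild-type ones, and 0.04 with total-count scaling.

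Ncoa2 (ENSMUSG00000005886, chr1:13139105-13374083, minus strand) had 87.4, 84.9 and 86.9 CPM in treated and 98.0, 93.0 and 99.0 CPM in untreated knock-in libraries. In wild type, Ncoa2 had 72.2, 74.0 and 66.1 CPM in treated and 94.4, 93.0 and 85.4 CPM in untreated libraries. Treated wild type was thus the lowest group, with replicate 3 the lowest library, and untreated libraries of the genotypes overlapped. Ncoa2 fell by 0.16 ± 0.05 log2 with CP775146 in the knock-in (10.6%, adjusted p = 0.00498) and by 0.36 ± 0.05 in wild type (22.2%, adjusted p = 1.88e-07). Among treated cells it was 0.29 ± 0.05 log2 higher in the knock-in (22.0%, adjusted p = 7.66e-06). Among untreated cells the difference was 0.09 ± 0.05 (adjusted p = 0.135), or 0.19 with total-count scaling (adjusted p = 0.00131).

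Ncoa3 (ENSMUSG00000027678, chr2:165992636-166073242, plus strand) had 50.0, 48.0 and 48.9 CPM in treated and 52.9, 50.2 and 55.8 CPM in untreated knock-in libraries. In wild type, Ncoa3 had 38.8, 39.2 and 38.9 CPM in treated and 47.3, 47.8 and 45.5 CPM in untreated libraries. The knock-in libraries lay above the wild-type ones in both treatments without overlap, and treated wild type was lowest by a wide gap. Ncoa3 was higher in the knock-in by 0.33 ± 0.05 log2 in treated cells (25.7%, adjusted p = 9.92e-07) and by 0.18 ± 0.05 in untreated cells (13.1%, adjusted p = 0.00265). With the agonist it fell by 0.11 ± 0.04 log2 in the knock-in (adjusted p = 0.0482) and by 0.27 ± 0.05 in wild type (adjusted p = 3.31e-05). The fall in the knock-in was close to the threshold and was lost without any 1 of 5 of the 6 knock-in libraries (adjusted p = 0.0583, 0.156 and 0.11 without treated replicates 1, 2 and 3, and 0.1 and 0.269 without untreated replicates 1 and 3), and with DESeq2 (adjusted p = 0.0807). Of the exonic bases of Ncoa3, 154 (1.95%) also lie in exons of Sulf2, and counting took no account of strand.

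Set against each other per length, Ncoa1 and its relatives changed their proportions. The ratio of Ncoa1 to Ncoa3 was 1.31, 1.26 and 1.29 in treated and 1.003, 1.03 and 0.963 in untreated knock-in libraries. In wild type the ratio of Ncoa1 to Ncoa3 was 1.77, 1.71 and 1.71 in treated and 1.34, 1.22 and 1.19 in untreated libraries. Within each genotype the treated libraries were the higher ones, and within each treatment the knock-in libraries were the lower ones, both without overlap. Ncoa1 to Ncoa2 followed the same order, with group means of 1.44 ± 0.0375, 1.083 ± 0.0166, 1.89 ± 0.101 and 1.28 ± 0.0471 in treated knock-in, untreated knock-in, treated wild type and untreated wild type (SD, n = 3 each). These ratios were chosen after the levels had been seen and are given as a description. A ratio shows unequal change of its genes and does not depend on how libraries were scaled.

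**Figure D4:**
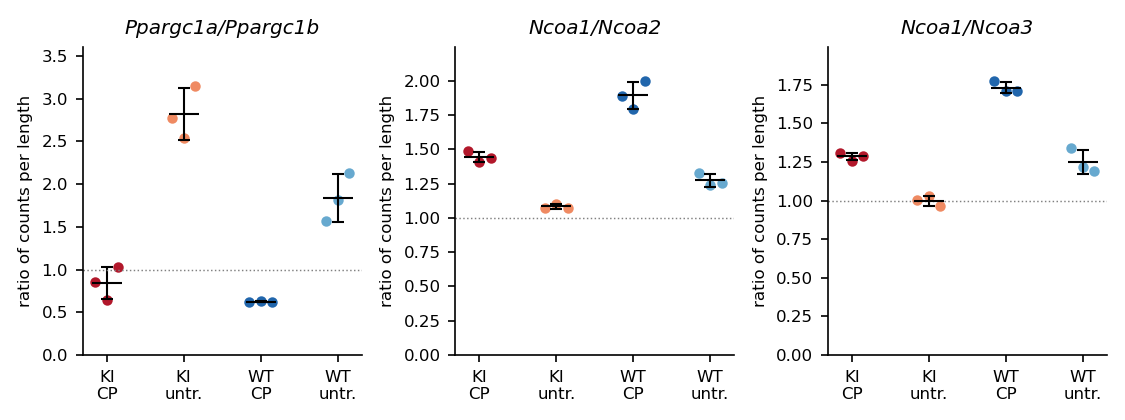
Ratio of counts per exonic length in every library (points) with the mean and SD of the group (bars), for Ppargc1a to Ppargc1b, Ncoa1 to Ncoa2 and Ncoa1 to Ncoa3; the dotted line marks equal levels. Ppargc1a to Ppargc1b is below 1 in 5 of the 6 treated libraries and at least 1.57 in every untreated one.

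The PGC-1 coactivators, which dock on receptors without acetyltransferase activity of their own and link them to mitochondrial and fasting programmes, gave the widest changes of the 9 genes with the agonist in both genotypes, though not between genotypes in treated cells, where Ncoa3 differed most. Ppargc1a (PGC-1alpha, ENSMUSG00000029167, chr5:51454250-51567726, minus strand), a driver of gluconeogenesis and fatty acid oxidation, had 7.14, 5.92 and 7.71 CPM in treated and 15.2, 15.4 and 16.1 CPM in untreated knock-in libraries. In wild type, Ppargc1a had 5.62, 5.89 and 5.17 CPM in treated and 11.8, 10.9 and 13.7 CPM in untreated libraries. Every treated library was below every untreated one, and the knock-in libraries were above the wild-type ones of the same treatment, in treated cells by a narrow margin. Ppargc1a fell by 1.16 ± 0.09 log2 with CP775146 in the knock-in (2.24-fold lower, adjusted p = 7.65e-12) and by 1.12 ± 0.10 in wild type (2.18-fold lower, adjusted p = 1.33e-10). It was higher in the knock-in by 0.32 ± 0.11 log2 in treated cells (24.6%, adjusted p = 0.0164) and by 0.36 ± 0.09 in untreated cells (28.2%, adjusted p = 0.00122). The treated difference lost its call without replicate 1 of treated knock-in (adjusted p = 0.0526), replicate 3 of treated knock-in (0.23 log2, adjusted p = 0.128) or replicate 3 of treated wild type (adjusted p = 0.0666). These treated levels rest on 139 to 274 counts per library.

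Ppargc1b (PGC-1beta, ENSMUSG00000033871, on chromosome 18), its relative with roles in mitochondrial biogenesis and lipid synthesis, went the other way. It had 5.05, 5.52 and 4.56 CPM in treated and 3.31, 3.67 and 3.10 CPM in untreated knock-in libraries. In wild type, Ppargc1b had 5.52, 5.65 and 5.02 CPM in treated and 4.54, 3.65 and 3.90 CPM in untreated libraries, and treated libraries did not overlap with untreated ones in either genotype. Ppargc1b rose by 0.59 ± 0.12 log2 in the knock-in (adjusted p = 0.000193) and by 0.42 ± 0.12 in wild type (34.0%, adjusted p = 0.00452). Between genotypes it did not pass, at -0.10 ± 0.11 in treated cells (adjusted p = 0.499) and -0.27 ± 0.13 in untreated cells (adjusted p = 0.101), and the treated value turned to 0.03 with total-count scaling. Counts were 97 to 180 per library, the fewest of the 9 genes.

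Per length, the more abundant PGC-1 transcript changed with the agonist. The ratio of Ppargc1a to Ppargc1b was 0.857, 0.649 and 1.02 in treated and 2.77, 2.54 and 3.15 in untreated knock-in libraries. In wild type it was 0.616, 0.631 and 0.623 in treated and 1.57, 1.81 and 2.13 in untreated libraries. Per length, Ppargc1a was thus the more abundant in every untreated library and the less abundant in every treated library except replicate 3 of treated knock-in. The treated and untreated ratios did not overlap. In CPM, not divided by length, Ppargc1a was above Ppargc1b in every library, treated or not. The order in treated cells thus depends on the exonic lengths used (6592 bases for Ppargc1a, 3990 for Ppargc1b).

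Med1 (ENSMUSG00000018160, chr11:98152154-98193293, minus strand) is the Mediator subunit that contacts liganded receptors and joins them to the transcription machinery, and in mouse liver it is required for PPAR-alpha responses. Its log2 changes were at most 0.12 in size in the 4 contrasts. Med1 had 75.9, 75.01 and 72.9 CPM in treated and 78.8, 79.0 and 80.6 CPM in untreated knock-in libraries. In wild type, Med1 had 73.9, 82.4 and 71.7 CPM in treated and 84.4, 82.7 and 80.5 CPM in untreated libraries, where replicate 2 of the treated ones overlapped with the untreated ones. With CP775146 it gave -0.09 ± 0.04 log2 in the knock-in (adjusted p = 0.111, but 0.0349 with limma voom). In wild type Med1 fell by 0.12 ± 0.05 (adjusted p = 0.0347), a call that was lost without replicate 1 or 3 of treated wild type (adjusted p = 0.0929 and 0.165) or replicate 1 or 2 of untreated wild type (adjusted p = 0.137 and 0.0708). Knock-in over wild type was -0.03 ± 0.05 in treated and -0.05 ± 0.05 in untreated cells (95% intervals -0.12 to 0.06 and -0.14 to 0.03), and with total-count scaling these turned to 0.11 and 0.05.

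Of the corepressors, Ncor1 is the scaffold that tethers the histone deacetylase HDAC3 to unliganded receptors, and Nrip1 (RIP140) binds liganded receptors and represses metabolic genes. Between genotypes they differed in treated cells and in opposite directions. Ncor1 (ENSMUSG00000018501, chr11:62316426-62458541, minus strand) had 247, 243 and 236 CPM in treated and 217, 219.6 and 226 CPM in untreated knock-in libraries. In wild type, Ncor1 had 209, 217 and 177 CPM in treated and 217, 216 and 205 CPM in untreated libraries. The treated knock-in libraries were the highest of the 12, and replicate 3 of treated wild type was far below every other library. Among treated cells Ncor1 was higher in the knock-in by 0.27 ± 0.05 log2 (20.4%, adjusted p = 0.00024), and this held on leaving out each library in turn, at 0.19 (adjusted p = 0.000357) without replicate 3 of treated wild type. Among untreated cells the difference was 0.06 ± 0.05 (adjusted p = 0.439), or 0.16 with total-count scaling (adjusted p = 0.032). With the agonist Ncor1 gave 0.13 ± 0.05 log2 in the knock-in (adjusted p = 0.052, with treated libraries above untreated ones) and -0.08 ± 0.05 in wild type (adjusted p = 0.236). The knock-in value passed with DESeq2 (adjusted p = 0.0488) and limma voom (adjusted p = 0.0106), and the wild-type value passed without replicate 2 of treated wild type (-0.14, adjusted p = 0.0298) and with total-count scaling (-0.18, adjusted p = 0.0152). Of the exonic bases of Ncor1, 83 (0.648%) lie in exons of Pigl or Ttc19 as well.

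Nrip1 (ENSMUSG00000048490, chr16:76287400-76373827, minus strand) had 42.3, 45.9 and 44.8 CPM in treated and 46.2, 45.9 and 51.1 CPM in untreated knock-in libraries. In wild type, Nrip1 had 50.7, 58.8 and 51.9 CPM in treated and 53.3, 44.7 and 47.1 CPM in untreated libraries. Treated knock-in libraries were below treated wild-type ones, and every other pair of groups overlapped. Among treated cells Nrip1 was lower in the knock-in by -0.28 ± 0.06 log2 (17.5% lower, adjusted p = 0.00106), or by -0.14 with total-count scaling (adjusted p = 0.073). Among untreated cells it gave -0.02 ± 0.06 (adjusted p = 0.858), a value whose sign turned under several settings. With the agonist it gave -0.11 ± 0.06 in the knock-in (adjusted p = 0.206) and 0.15 ± 0.06 in wild type (adjusted p = 0.0555), and the wild-type value passed without replicate 1 of untreated wild type (0.23, adjusted p = 0.0046) or replicate 1 of treated wild type (0.19, adjusted p = 0.0342).

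Whether the agonist acted differently in the genotypes was tested as an interaction, the knock-in response minus the wild-type response. None of the 9 genes passed it with edgeR, where 7.11% of all tested genes passed (2.78% up, 4.33% down, or 663 up and 519 down with total-count scaling, against 435 and 678). The unadjusted p was below 0.05 for 4 of them, and limma voom called 2 and DESeq2 none. With edgeR the interaction was 0.21 ± 0.07 log2 for Ncor1 (adjusted p = 0.0952; unadjusted 0.0096), 0.20 ± 0.06 for Ncoa2 (adjusted p = 0.0596; unadjusted 0.00471), 0.15 ± 0.07 for Ncoa3 (adjusted p = 0.179; unadjusted 0.0275) and -0.26 ± 0.09 for Nrip1 (adjusted p = 0.0898; unadjusted 0.00875). Ncor1 and Ncoa2 were the genes that voom called (adjusted p = 0.0235 and 0.0159). Of these 4, Ncoa3 did not pass on leaving out any single library, while Ncor1 passed without replicate 1 or 2 of treated wild type (adjusted p = 0.0473 and 0.014), Ncoa2 without the same libraries (0.0368 and 0.019) or replicate 3 of untreated wild type (0.0125), and Nrip1 without replicate 1 of untreated wild type (0.0148). For Ppargc1a the interaction was -0.04 ± 0.14 with a 95% interval of -0.31 to 0.23, for Mtdh 0.03 ± 0.06 (-0.08 to 0.14), for Med1 0.03 ± 0.06 (-0.10 to 0.15), for Ncoa1 0.05 ± 0.07 (-0.09 to 0.19) and for Ppargc1b 0.16 ± 0.17 (-0.17 to 0.49).

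The agonist effect moved with exonic length across all genes, and 8 of the 9 members lie in the quartile of longest genes (5543 bases or more), Ppargc1b with 3990 bases in the next quartile. The median log2 change by quartile, shortest to longest, was 0.057, 0.0073, -0.027 and -0.068 in the knock-in and 0.097, 0.014, -0.026 and -0.080 in wild type. In a fit that removed this trend, the falls of Ncoa2 (-0.08, adjusted p = 0.0933) and Ncoa3 (-0.07, adjusted p = 0.229) in the knock-in and of Med1 in wild type (-0.05, adjusted p = 0.352) no longer passed. In that fit Ncor1 in the knock-in (0.20, adjusted p = 8.41e-05) and Nrip1 in wild type (0.25, adjusted p = 0.000437) did pass. The other agonist calls of Mtdh, Ncoa1, Ncoa2, Ncoa3, Ppargc1a and Ppargc1b kept their direction and their side of the threshold in it.

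Other coregulators were counted in 4 lists. Among 36 further coactivators, 8 were higher and 10 lower in treated knock-in than in treated wild type, against 20.5% and 22% of all genes, and 2 were higher (4 without replicate 2 of untreated wild type) and 8 lower in untreated cells, against 18.4% and 18.6%. Lpin1, a phosphatidate phosphatase that also coactivates PPAR-alpha with PGC-1alpha, had 91.4, 93.4 and 95.01 CPM in treated and 137, 124 and 127 CPM in untreated knock-in libraries. In wild type, Lpin1 had 159, 174 and 173 CPM in treated and 248, 266 and 233 CPM in untreated libraries. It fell with the agonist in both genotypes (-0.47 ± 0.05 in the knock-in, -0.56 ± 0.05 in wild type), as Ppargc1a did, but was lower in the knock-in (-0.86 ± 0.05 in treated and -0.95 ± 0.05 in untreated cells), where Ppargc1a was higher. With the agonist 5 of the coactivators rose and 11 fell in the knock-in, against 18.1% and 19.1%, and 4 rose (2 without replicate 2 of treated wild type) and 16 fell in wild type, against 22.7% and 22.3%. The acetyltransferase Kat2b fell in both (-0.34 ± 0.04 and -0.32 ± 0.04). The median of the 36 was 0.040 and -0.019 between genotypes in treated and untreated cells and -0.051 and -0.10 with the agonist in the knock-in and wild type, beside the medians of all genes given above. With total-count scaling the counts were 21 higher and 1 lower in treated and 9 and 5 in untreated cells between genotypes, and 3 higher and 19 lower in the knock-in and 2 and 25 in wild type with the agonist. In the fit without the length trend, 8 coactivators fell in the knock-in and 12 in wild type. Of all genes in the longest quartile, 16.8% rose and 30.1% fell in the knock-in, and 19.3% and 35.9% in wild type. None of the lists was matched for length.

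Among 27 further corepressors, 8 were higher and 5 lower in the knock-in in treated cells, against 20.5% and 22% of all genes, and 7 higher and 4 lower in untreated cells, against 18.4% and 18.6%. In treated cells the higher ones were 5 without replicate 1 or 3 of treated knock-in or replicate 3 of treated wild type, and the lower ones 3 without replicate 2 of treated knock-in. Hdac7, a class IIa histone deacetylase, had 3.17, 3.19 and 3.10 CPM in treated knock-in libraries and 1.35, 1.23 and 1.004 CPM in treated wild-type libraries, and was 1.39 ± 0.16 log2 higher in the knock-in (adjusted p = 1.52e-08). In untreated cells it was 1.46 ± 0.12 log2 higher (adjusted p = 3.99e-11). With the agonist 3 corepressors rose and 6 fell in the knock-in, against 18.1% and 19.1% of all genes, and 5 rose and 11 fell in wild type, against 22.7% and 22.3%. The median of the 27 was 0.045 and -0.0010 between genotypes (treated and untreated) and -0.088 and -0.071 with the agonist (knock-in and wild type). With total-count scaling 16 and 11 corepressors were higher and 1 and 1 lower between genotypes, and 2 and 3 were higher and 14 and 17 lower with the agonist, in the same orders.

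Of the 31 other Mediator genes tested, 1 rose and 4 fell with the agonist in the knock-in, against 18.1% and 19.1% of all genes, and 1 rose and 9 fell in wild type, against 22.7% and 22.3%. The 1 that rose in the knock-in lost its call on leaving out any of the 6 knock-in libraries, and the medians were -0.039 and -0.060. Between genotypes 4 were higher and 4 lower in treated cells, against 20.5% and 22%, and 4 higher and 7 lower in untreated cells, against 18.4% and 18.6%, with medians of 0.017 and -0.035. The 4 higher in untreated cells were 2 without replicate 2 or 3 of untreated knock-in or replicate 3 of untreated wild type. With total-count scaling, 15 and 10 were higher and 2 and 2 lower between genotypes (treated and untreated), and 0 and 1 rose and 10 and 15 fell with the agonist (knock-in and wild type). Med13, a subunit of the Mediator kinase module, was lower in the knock-in in both (-0.47 ± 0.06 and -0.44 ± 0.06), unlike Med1, and fell with the agonist in both genotypes (-0.40 ± 0.06 in the knock-in, -0.37 ± 0.06 in wild type).

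The list of AEG-1 partners held 10 genes, among them Ppara, which is included as the gene of a receptor that pairs with RXR. Of the 10, 3 were higher and 3 lower in the knock-in in treated cells, against 20.5% and 22% of all genes, and 1 higher and 3 lower in untreated cells, against 18.4% and 18.6%. Of these, Ppara, the receptor for the agonist, had 89.7, 96.2 and 95.6 CPM in treated and 75.4, 70.8 and 73.7 CPM in untreated knock-in libraries. In wild type, Ppara had 121, 137 and 124 CPM in treated and 86.5, 88.8 and 87.4 CPM in untreated libraries. It was lower in the knock-in in both treatments (-0.44 ± 0.04, adjusted p = 2.11e-09, and -0.26 ± 0.05, adjusted p = 3.84e-05), the direction of Nrip1 in treated cells and opposite to that of Ncoa3 and Ppargc1a. Snd1, a nuclease bound by AEG-1, was 0.24 ± 0.04 log2 higher in treated knock-in than in treated wild type (adjusted p = 3.81e-06). With the agonist 3 partners rose and 2 fell in the knock-in, against 18.1% and 19.1%, and 2 rose and 4 fell in wild type, against 22.7% and 22.3%. Their medians were 0.042 and -0.036 between genotypes (treated and untreated) and 0.049 and -0.034 with the agonist (knock-in and wild type). With total-count scaling 6 and 3 were higher and 1 and 2 lower between genotypes, and 3 and 2 rose and 3 and 6 fell with the agonist. Of 9 nuclear receptors counted for context, which share Ppara and the RXR genes with the partners, 4 rose and 1 fell with the agonist in each genotype, against 18.1% and 19.1% of all genes in the knock-in and 22.7% and 22.3% in wild type. The 1 that fell was 0 in the knock-in without replicate 3 of either knock-in group and 2 in wild type without replicate 2 of treated wild type. Between genotypes 3 were higher and 3 lower in treated cells, against 20.5% and 22%, and 3 higher and 4 lower in untreated cells, against 18.4% and 18.6%. The 4 lower ones were 2 without replicate 1 or 2 of untreated knock-in or replicate 2 of untreated wild type, and Rxrg was higher in both treatments (0.79 ± 0.09 and 0.73 ± 0.10). The receptors' medians were -0.089 and -0.038 between genotypes (treated and untreated) and 0.053 and 0.12 with the agonist (knock-in and wild type). With total-count scaling 4 and 3 receptors were higher and 2 and 2 lower between genotypes, and 4 and 3 rose and 1 and 3 fell with the agonist.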

How the data were processed

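Total RNA of 12 hepatocyte samples was sequenced with an Illumina TruSeq kit, per the labels' protocols. The deposited values are raw counts of reads per gene. Per the file headers, the authors obtained them with featureCounts 1.6.2, with exons summed by gene and neither strand nor multi-mapping set, from mm10 alignments (Subread) and the annotation of Ensembl release 83. The submitters' processing notes name featureCounts 1.4.6-p4 instead, with FastQC 0.11.2, cutadapt 1.9 and edgeR 3.18.1. Symbols matched 46488 of 46983 gene IDs.

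Low counts were removed by filterByExpr with its minimum count of 10 and total of 15, and libraries were scaled by TMM and modelled in edgeR 4.0.16 under R 4.3.3 (robust glmQLFit), with a term for each of the 4 groups and all 12 libraries in the fit. The 4 contrasts between groups and the interaction were tested with glmQLFTest. The scripts were tested on simulated data. Each library was counted as its own sample. Libraries of a group differed by more than sampling noise (chi-square per degree of freedom 1.70 to 6.79), which does not show that they stem from separate mice or cultures. Variation between libraries beyond that noise (coefficient of variation), which may be technical, came to 2.63% and 2.59% in treated and untreated knock-in. In treated and untreated wild type it came to 5.33% and 5.10%, while the fit shares 1 spread per gene.

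All 9 genes are named in each contrast. Per list and contrast up to 3 called genes of smallest adjusted p could be named. Likeness was ranked by Pearson correlation of log2 CPM (prior count 2) among tested genes that averaged 5 CPM or more. The members and lists were chosen with earlier results of these data known. Of the lists, 1 coactivator and 1 hepatocyte marker were not analysed here. The coactivator Pagr1a, the corepressors Nr0b1 and Nr0b2 and the Mediator gene Med10 did not pass the low-count filter and were not tested. Exon lengths are those of the count files, and coding sequences and overlaps come from GENCODE M21 (GRCm38).

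Replicate numbers were checked for pairing in the 4 contrasts between groups. In 1 of them each treated knock-in library deviated most like the treated wild-type library of the same number (correlations 0.165, 0.125 and 0.165). These correlations are weak, whether they arose by chance was not tested, and they do not establish a pairing. This match comes from the data and not from the labels, and the fit with that replicate block changed no member's call in this contrast. In the other contrasts the numbers did not match throughout. The other settings tried were total-count or RLE scaling, the tests of DESeq2 1.42.0 and of voom with sample weights (limma 3.58.1), filters of none or of 5 CPM in at least 3 libraries, fits to only the groups compared, replicate blocks and leaving out each library. A fit without the length trend was added after the trend was seen.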

Additional observations from a re-analysis of the deposited data

Results flagged for a closer look

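Among the other coregulators, AEG-1 partners and receptors counted beside the 9 genes, 7 of 108 tested (6.48%) passed the test of a difference between genotypes in the response to CP775146 (edgeR interaction, knock-in response minus wild-type response), against 7.11% of all tested genes, and all 7 had a positive difference. Over both directions, a share so near that of all genes is no result about these lists. By direction, 2.78% of all tested genes passed up and 4.33% down, and whether these lists differ from that was not tested. The 7 are given as single values. For the acetyltransferase Kat2a the difference was 0.30 ± 0.06 log2 (adjusted p = 0.00195), from 0.20 ± 0.04 in the knock-in and -0.11 ± 0.05 in wild type. The arginine methyltransferase Carm1, which binds the p160 proteins, gave 0.30 ± 0.07 (adjusted p = 0.0109), from 0.17 ± 0.05 and -0.13 ± 0.05, and lost the call without replicate 1 of treated knock-in (0.25, adjusted p = 0.0573). The AEG-1 partner Snd1 gave 0.25 ± 0.05 (adjusted p = 0.00262), from 0.20 ± 0.04 and -0.05 ± 0.04. The receptor gene Rxra gave 0.24 ± 0.05 (adjusted p = 0.00392), from 0.05 ± 0.04 and -0.18 ± 0.04.

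Pprc1, the third gene of the PGC-1 family, gave 0.22 ± 0.06 (adjusted p = 0.0192), from -0.0037 ± 0.04 in the knock-in and -0.23 ± 0.04 in wild type. The RNA helicase Ddx17 gave 0.20 ± 0.05 (adjusted p = 0.0131), from -0.028 ± 0.04 and -0.23 ± 0.04, and lost the call without replicate 2 of untreated knock-in (adjusted p = 0.0627) or replicate 3 of treated knock-in (adjusted p = 0.0512). The corepressor Ctbp1 gave 0.18 ± 0.06 (adjusted p = 0.0474), from 0.073 ± 0.04 and -0.11 ± 0.04, and lost the call without a filter (adjusted p = 0.0801), with the replicate block within genotype (0.0618) and on leaving out any library other than replicate 3 of untreated wild type or replicate 1 of treated wild type (0.0506 to 0.2).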

How the results depend on the processing

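Of 747 values of the 9 genes under alternatives, 657 kept their direction and side of the threshold, 29 fell short of it, 42 newly passed and 19 turned sign, where the cause was not tested. With total-count scaling these turned: Med1 (0.048) and Nrip1 (0.084) between genotypes untreated, and Ncoa1 (0.038), Ppargc1b (0.034) and Med1 (0.11) treated. That scaling gave 5 members called between genotypes untreated, 1 in the interaction, and the counts of all genes printed above (5024 and 1722, 5950 and 1867, 2358 and 5338, 663 up). Nrip1 between genotypes untreated was also 0.00071 without a filter, 0.0071 without the length trend and -0.066 to 0.063 without single libraries. Ncor1 with the agonist in wild type was 0.027 and Mtdh in the interaction -0.0052 without the length trend. On leaving out each library, Med1 between genotypes treated was -0.061 to 0.041 and, in the interaction, Mtdh was -0.012 to 0.062, Ncoa1 -0.015 to 0.10, Ppargc1a -0.14 to 0.055 and Med1 -0.0020 to 0.10.

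In the interaction 732 to 1468 genes were called on leaving out each library, 251 to 638 up and 481 to 882 down, against 1113, 435 and 678. The lowest count was without replicate 1 of treated knock-in, and calls up were also 270 and 271 without replicates 1 and 2 of untreated knock-in. Members called there were 0 to 2 on leaving out libraries and 2 with limma voom, without a filter, without the length trend and with the replicate block within genotype.

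With the replicate block over all libraries, 5 members were called between genotypes treated, as without it, and no member's call changed in that contrast. With the agonist in the knock-in, Ncoa3 lost its call under the block (adjusted p = 0.0572) and Ncor1 newly passed (0.0299). At 97 to 180 counts per library, Ppargc1b is the member whose precision depth limits most. The fit of the compared groups alone was not run for the interaction, which needs all 4 groups.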

Other observations

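Partner enzymes of the 9 genes, named for that role after their values were seen, were measured in the same libraries. Hdac3, the deacetylase tethered by Ncor1, did not pass in any of the 5 contrasts, with log2 values between -0.062 and 0.036. Ep300 and Crebbp encode acetyltransferases that the p160 coactivators recruit. With the agonist Ep300 fell by 0.26 ± 0.07 log2 in the knock-in (adjusted p = 0.00612) and by 0.44 ± 0.07 in wild type (adjusted p = 5.87e-05). Crebbp gave -0.17 ± 0.07 in the knock-in (adjusted p = 0.054) and fell by 0.42 ± 0.07 in wild type (adjusted p = 2.23e-05). For both the difference between the responses did not pass (adjusted p = 0.317 and 0.12).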
